A study of Mus musculus with 9 samples.

Results

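The genes described here are 32 genes of mitosis and cytokinesis, followed in the hearts of mice with and without the staggerer mutation of Rora. They were taken from a fixed list of gene symbols, and each was represented by the probe with the highest mean signal over the arrays. Of the 32 genes, 31 were matched to a probe, and these 31 were all tested, among 27775 genes in all. Prc1 was matched to no probe and was not analysed here. The mice were untreated males labelled C57BL/6, aged 3 to 4 months, and the hearts came from separate mice: 5 wild type (WT) and 4 RORasg/sg. The RORasg/sg mice are homozygous for staggerer, a germline deletion in Rora, which encodes the nuclear receptor RORalpha, so every cell of the heart carries it and no group had the receptor removed from a single cell type. Total RNA of each whole heart was amplified and hybridised to 1 single-colour Agilent array. The study asked how RORalpha bears on cardiac hypertrophy.

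A dividing cell condenses its chromosomes, ties them to a spindle of microtubules, separates them once all are attached, and then cuts itself apart at the midzone. Cyclins A and B with the kinase Cdk1 start the process, the Aurora and Polo kinases arrange the spindle, the checkpoint delays separation, and the anaphase ubiquitin ligase ends it by destroying the cyclins. Most of these genes are transcribed in late cell cycle only, and adult heart muscle cells rarely divide, so their transcripts in an adult heart are usually scarce and may come from any dividing cell in it. In RNA of a whole heart, fewer cells of a type and less RNA per cell cannot be told apart.

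Promoters of such genes are known for CCAAT boxes, which bind NF-Y, and for the cell cycle genes homology region, a short element with the letters TTTGAA or TTTAAA through which the DREAM complex silences them in resting cells. The promoter windows of 300 bases in the RefSeq table (build GRCm38.p6, 250 bases before and 50 after each start) covered 28 of the 32 genes and left out Aurkb, Ccna2, Kif20a and Tpx2. Both strands were searched, any listed window of a gene counted, and the motifs may overlap. CCAAT was present in 21 of the 28 genes, against 42.3% of 17492 protein-coding genes. TTTGAA or TTTAAA was present in 23 of the 28 (82.1%), against 28.2% of protein-coding genes. Both kinds of motif were present in 19 of the 28 (67.9%), against 11.5% of protein-coding genes. A match is a description of the letters and not evidence of a bound site. The promoters of 6 genes are shown because their genes carry the values below: Racgap1, Kif11 and Plk1 had RORasg/sg hearts that did not overlap the WT hearts, Ccnb1 and Cdk1 form the mitotic kinase, and Top2a was high in a single RORasg/sg heart. Each is the 150 bases before the start, written 5′ to 3′ on the strand of the gene, with every CCAAT or homology region motif of either strand in capitals (on the other strand CCAAT is read as ATTGG, while TTTGAA is read as TTCAAA). The positions are chr15:99651657-99651806 (minus strand) for Racgap1, chr19:37376232-37376381 (plus strand) for Kif11, chr7:122159285-122159434 (plus strand) for Plk1, chr13:100786487-100786636 (minus strand) for Ccnb1, chr10:69352913-69353062 (minus strand) for Cdk1 and chr11:99024190-99024339 (minus strand) for Top2a.
Racgap1: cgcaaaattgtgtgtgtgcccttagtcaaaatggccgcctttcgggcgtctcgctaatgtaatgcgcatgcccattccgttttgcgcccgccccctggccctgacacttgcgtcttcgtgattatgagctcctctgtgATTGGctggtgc
Kif11: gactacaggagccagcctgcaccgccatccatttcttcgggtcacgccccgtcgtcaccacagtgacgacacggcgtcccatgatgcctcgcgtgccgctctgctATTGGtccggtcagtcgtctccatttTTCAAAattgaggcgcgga
Plk1: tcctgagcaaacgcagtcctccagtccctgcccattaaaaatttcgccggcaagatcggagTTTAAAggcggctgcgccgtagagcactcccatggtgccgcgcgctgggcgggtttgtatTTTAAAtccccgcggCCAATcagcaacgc
Ccnb1: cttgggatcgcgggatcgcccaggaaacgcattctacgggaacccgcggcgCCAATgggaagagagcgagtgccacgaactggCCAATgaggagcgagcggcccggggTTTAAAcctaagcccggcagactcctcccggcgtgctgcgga
Cdk1: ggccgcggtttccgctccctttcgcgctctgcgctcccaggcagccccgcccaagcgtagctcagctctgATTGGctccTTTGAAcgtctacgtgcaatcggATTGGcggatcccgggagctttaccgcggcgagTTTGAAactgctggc
Top2a: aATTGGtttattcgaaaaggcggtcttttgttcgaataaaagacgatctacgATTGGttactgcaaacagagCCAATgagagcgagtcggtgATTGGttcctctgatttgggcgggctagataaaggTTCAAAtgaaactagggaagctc
In these bases Top2a held 4 CCAAT motifs, Cdk1 and Ccnb1 held 2 each, and Racgap1, Kif11 and Plk1 held 1 each. Plk1 held 2 copies of TTTAAA and Ccnb1 held 1, Cdk1 held 2 copies of TTTGAA, and Kif11 and Top2a held 1. The TTTGAA of Racgap1 lies after its start, in bases not shown.

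The arrays differed in brightness in a way that ran with genotype. The 75th percentile of processed signal lay between 423 and 669 in the 5 WT hearts, at 760 in RORasg/sg 1, and between 259 and 382 in RORasg/sg 2, 3 and 4. The arrays with a 75th percentile under 500, those of WT 4 and of RORasg/sg 2, 3 and 4, are referred to as the 4 dimmer arrays and the remaining 5 as the brighter arrays. The share of probes well above background ran from 80.7% to 87.8%. Rora itself had its RORasg/sg hearts below the WT range on 2 of its 3 probes (log2 differences of -4.13 and -5.34), while the groups overlapped on the third probe (-1.07). Whether any of these probes lies in the deleted part is not known. The 10 cardiomyocyte markers were well above background on all arrays, with Actc1, Tnni3 and Myl2 the highest, but not all of them were highly expressed in every heart. For example, among markers singled out after their values were seen, Myh6, a heart myosin, read between 4.66 and 6.06 log2 units in WT and 6.53, 4.28, 0.69 and 0.13 in RORasg/sg hearts 1 to 4, and Actn2, an actinin of the sarcomere, between 1.65 and 2.99 in WT and 3.70, 2.10, -3.47 and -1.05 in RORasg/sg hearts. The median deviation of all genes from the WT mean, called the array shift, lay between -0.17 and 0.29 log2 units in WT hearts, was -0.40 in RORasg/sg 1, and was 0.58, 0.65 and 0.75 in RORasg/sg 2, 3 and 4. Levels below are log2 of the signal relative to the 75th percentile of the array, and a value "after the shift" is a deviation from the mean of the WT hearts with the array shift taken off.

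Mitosis and cytokinesis genes read higher on average in RORasg/sg hearts, but no single gene passed the test, and the part of the difference that exceeds the array shift lay mainly in 1 heart. All 31 tested genes had a higher mean in RORasg/sg hearts with the 75th percentile scaling, against 66.8% of all genes, while 27 did after quantile normalization, 26 with each array centred on its shift and 22 without scaling. Their median log2 difference was 0.88, against 0.41 for all genes, and 26 of the 31 lay above the median of all genes. In limma, 0 of the 31 passed an adjusted p of 0.05 (0.0036% of all genes did), and their adjusted p lay between 0.344 and 0.980. An unadjusted p under 0.05 was reached by 13 of the 31 on the higher side and by 0 on the lower, against 4.95% of all genes higher and 6.56% lower. Without regard to variance, 6 of the 31 (Racgap1, Kif11, Melk, Ccnb1, Plk1 and Kif23) had all RORasg/sg hearts above all WT hearts, against 1.13% of all genes, and 0 had them all below, against 1.71%. In levels with the array shift taken off, 2 of 31 (Racgap1 and Bub1b) did, against 1.07% of all genes, and 3 of 31 had an unadjusted p under 0.05 on the higher side, against 2.78%.

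The hearts did not share this difference evenly. The median of the 31 genes after the shift was 0.09, 0.14, -0.23, -0.04 and -0.14 for WT hearts 1 to 5, and 1.74, 0.17, 0.31 and 0.09 for RORasg/sg hearts 1 to 4. After the shift, RORasg/sg 1 therefore stood well above the other 8 hearts. RORasg/sg 2, 3 and 4 then lay near the level that all genes had on those arrays. With the shift left in, the mutants were closer together and all above the WT hearts. Their medians were 1.34 (RORasg/sg 1), 0.75 (RORasg/sg 2), 0.97 (RORasg/sg 3) and 0.84 (RORasg/sg 4), with WT hearts from -0.40 to 0.25. The size of the gap between RORasg/sg 1 and the other mutants thus depends on the shift. In RORasg/sg 1, 28 of the 31 genes exceeded the WT mean after the shift (50% of all genes did). By over 1 log2 unit, 23 of the 31 exceeded it (12.7% of all genes), and by over 2 log2 units, 11 of the 31 (2.16% of all genes). The same count over 1 log2 unit was 7 of 31 in RORasg/sg 2 (16.7% of all genes), 7 in RORasg/sg 3 (16% of all genes) and 3 in RORasg/sg 4 (19% of all genes). In levels with the array shift taken off, RORasg/sg 1 lay above every WT heart in 25 of the 31 genes (24.6% of all genes). For RORasg/sg 2, 3 and 4 that number was 8, 14 and 7, against 30.6%, 29.1% and 31.2% of all genes. On the scale of deviations, where each WT heart is set against the other 4, these counts are not the same. With the scaled levels as they are, without the shift, RORasg/sg 1 was the highest of the 9 hearts in 13 of the 31 genes, against 8.43% of all genes. RORasg/sg 2, 3 and 4 were the highest in 5, 8 and 3 of the 31, against 27.4%, 14.6% and 25.9% of all genes. The genes below the WT mean in RORasg/sg 1 after the shift were Bub1 (-0.11), Kif2c (-0.63) and Cenpf (-0.67).

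**Figure D1:**
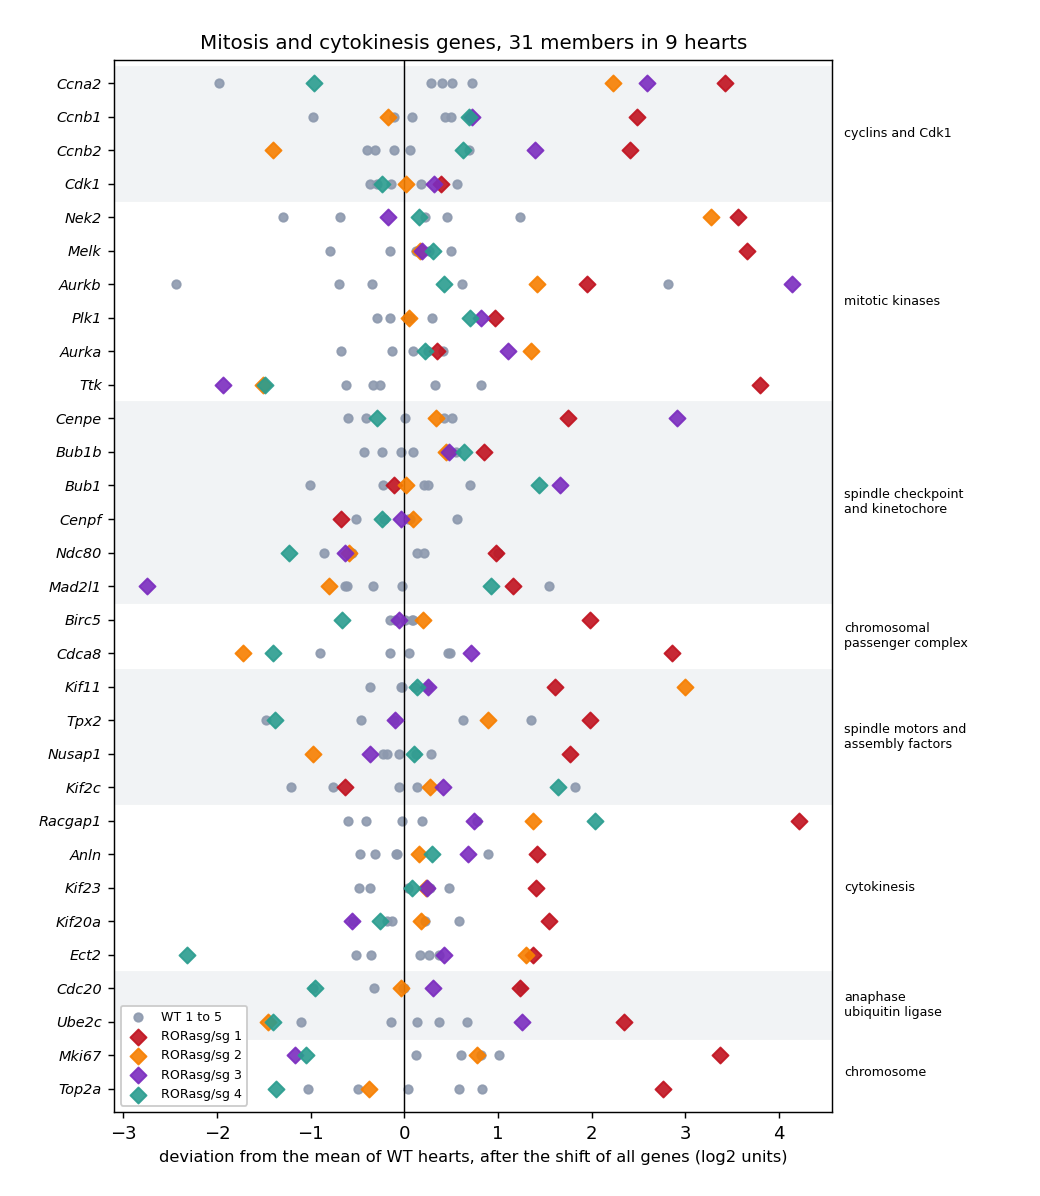
Deviation of each of 31 mitosis and cytokinesis genes from the mean of the WT hearts, after the shift of all genes on that array (x axis, log2 units), with genes in rows grouped by role. Grey circles are the 5 WT hearts and coloured diamonds the 4 RORasg/sg hearts; RORasg/sg 1 (red) lies over 1 log2 unit above the WT mean in 23 genes, RORasg/sg 2, 3 and 4 in 7, 7 and 3.

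The brightness of the array moved with this pattern, and its part in it was not tested: RORasg/sg 1 was the brightest of the 9 arrays and RORasg/sg 2, 3 and 4 were the 3 dimmest. The shift of all genes was larger on dim probes than on bright ones, with a median log2 difference of 0.55, 0.53, 0.29 and 0.18 in 4 equal classes of genes from the dimmest to the brightest. Of the 31 genes, 4, 11, 13 and 3 lay in these classes. With the shift taken within each class in place of over all genes, the median of the 31 genes was 1.61 in RORasg/sg 1 and 0.30, 0.34 and -0.05 in RORasg/sg 2, 3 and 4. In WT 4, the WT heart on a dimmer array, the median after the shift was -0.04.

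Fits on subsets of the arrays gave different calls, and they share WT hearts, so their values are set side by side only. Without RORasg/sg 1, limma called 8 of the 31 genes, all higher: Racgap1, Aurka, Bub1b, Bub1, Plk1, Kif11, Kif23 and Anln. That is 25.8% of the genes, against 28.8% of all genes called higher in the same fit, which is near the background, and 8.81% of all genes were called lower. The median of the 31 genes was then 0.85 and that of all genes 0.69, so 0.16 of it lay above the shift, against 0.47 with all hearts. The 5 brighter arrays contain RORasg/sg 1 as their single mutant heart, and the fit on them assumes that it varies like the WT hearts. There limma called 12 of the 31, all higher: Racgap1, Cdca8, Birc5, Ccna2, Mki67, Melk, Ttk, Nek2, Ccnb2, Top2a, Nusap1 and Ube2c. That is 38.7% of the genes, against 1.33% of all genes called higher and 3.21% called lower. The median there was 1.39, against -0.35 for all genes. The 4 dimmer arrays have WT 4 as their single WT heart, which is assumed to vary like the mutants. There 0 of the 31 passed in limma (0% of all genes) and 0 had an unadjusted p under 0.05 (2.87% of all genes on the higher and 3.67% on the lower side), and their median lay 0.09 above that of all genes. Within slide 1 (WT 1, WT 2, RORasg/sg 1 and RORasg/sg 2) the median lay 0.83 above that of all genes, and within slide 2 (WT 3, WT 4, RORasg/sg 3 and RORasg/sg 4) 0.19 above it.

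Counts of higher means are given with the 75th percentile scaling, with which 66.8% of all genes had a higher mean. Among the cyclins and their kinase, 4 of 4 genes had a higher mean in RORasg/sg hearts and 0 passed, with medians after the shift of 2.45, -0.08, 1.06 and 0.19 in RORasg/sg hearts 1 to 4. Ccna2, cyclin A, which acts from S phase to early mitosis, read -2.80, -2.72, -3.18, -4.63 and -3.03 in WT hearts 1 to 5, against -0.25, -0.46, -0.03 and -3.49 in RORasg/sg hearts 1 to 4. RORasg/sg 1, 2 and 3 lay above every WT heart, and RORasg/sg 4 lay within the WT range. The log2 difference was 2.22 (SE 0.715, limma adjusted p = 0.388). Ccnb1, cyclin B1, the main partner of Cdk1, read -5.63, -5.38, -5.54, -5.62 and -6.62 in WT and -3.67, -5.35, -4.38 and -4.32 in RORasg/sg hearts. The groups did not overlap, although RORasg/sg 2 was only just above the highest WT heart, and the probe was well above background in 2 of 5 WT and 3 of 4 RORasg/sg hearts. Its log2 difference was 1.33 (SE 0.515, limma adjusted p = 0.418). Ccnb2, cyclin B2, read -2.16, -1.37, -2.12, -1.62 and -2.23 in WT and 0.11, -2.72, 0.15 and -0.52 in RORasg/sg hearts, a difference of 1.16 (SE 0.596, limma adjusted p = 0.418). RORasg/sg 2 was here the lowest of all hearts and RORasg/sg 1, 3 and 4 were the highest. Cdk1, the kinase that drives entry into mitosis, read -5.11, -5.13, -4.87, -4.76 and -4.51 in WT and -4.88, -4.28, -3.91 and -4.36 in RORasg/sg hearts, and its difference of 0.52 (SE 0.429, limma adjusted p = 0.481) was close to the median of all genes. After the shift Cdk1 lay at 0.39, 0.02, 0.31 and -0.24 in RORasg/sg hearts 1 to 4, below the largest WT deviation of 0.56.

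The mitotic kinases had a higher mean in 6 of 6 genes (66.8% of all genes) and 0 passed. An unadjusted p under 0.05 was reached by 5 of the 6 (4.95% of all genes on the higher side). With the shift taken off the levels, the unadjusted limma p of the 6 lay between 0.0515 (Aurkb) and 0.802 (Ttk). Their medians after the shift were 2.75, 0.76, 0.50 and 0.26 in RORasg/sg hearts 1 to 4. Nek2, which separates the centrosomes, read -4.81, -4.17, -4.09, -5.12 and -3.41 in WT and -1.16, -0.46, -3.84 and -3.40 in RORasg/sg hearts. RORasg/sg 1 and 2 were over 2 log2 units above the highest WT heart, while RORasg/sg 3 and 4 were level with WT hearts, and the difference was 2.10 (SE 0.708, limma adjusted p = 0.400). Melk, a kinase of dividing and progenitor cells, read -3.74, -4.86, -4.12, -4.09 and -4.18 in WT and -0.94, -3.45, -3.36 and -3.13 in RORasg/sg hearts (difference 1.48, SE 0.559, limma adjusted p = 0.416). The groups did not overlap, but after the shift Melk was 3.66 in RORasg/sg 1 and only 0.17, 0.19 and 0.31 in RORasg/sg 2, 3 and 4. Aurkb, the kinase of the chromosomal passenger complex, read -4.19, -3.51, -4.67, -1.49 and -6.00 in WT and -2.42, -1.98, 0.82 and -2.80 in RORasg/sg hearts. WT 4 exceeded all RORasg/sg hearts but RORasg/sg 3, so the difference of 2.38 (SE 0.915, limma adjusted p = 0.418) came with wide spread in both groups.

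Plk1, the Polo kinase that matures centrosomes and triggers cytokinesis, read -0.11, -0.22, -0.58, 0.25 and -0.41 in WT and 0.35, 0.42, 1.26 and 1.25 in RORasg/sg hearts. Here RORasg/sg 3 and 4 were the highest and RORasg/sg 1 and 2 just exceeded WT 4, and the difference was 1.03 (SE 0.427, limma adjusted p = 0.418). Aurka, the spindle pole kinase, read 0.58, 1.24, 1.004, 1.62 and 0.88 in WT and 1.01, 3.00, 2.83 and 2.03 in RORasg/sg hearts (difference 1.15, SE 0.494, limma adjusted p = 0.418). RORasg/sg 1 lay among the WT hearts and the others above them, the reverse of the common order. Ttk, the checkpoint kinase Mps1, read -5.06, -4.75, -5.72, -5.64 and -5.72 in WT and -1.98, -6.31, -6.66 and -6.11 in RORasg/sg hearts. It was well above background in 3 of 5 WT hearts and in RORasg/sg 1 alone of the mutants, which left a mean difference of 0.11 (SE 0.869, limma adjusted p = 0.940).

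Genes of the spindle checkpoint and kinetochore, the plate that ties chromosomes to microtubules, showed the smallest deviation of the role groups in RORasg/sg 1, with medians after the shift of 0.92, 0.06, 0.22 and 0.20 in RORasg/sg hearts 1 to 4. All 6 had a higher mean, 3 of the 6 lay above the median of all genes, and 0 passed. Bub1b, the checkpoint protein BubR1, read -3.40, -3.84, -4.21, -3.69 and -4.31 in WT and -3.44, -2.87, -2.76 and -2.51 in RORasg/sg hearts (difference 0.998, SE 0.408, limma adjusted p = 0.418). After the shift it lay at 0.85, 0.44, 0.48 and 0.63, a narrower span than for Racgap1, the other gene without overlap once the shift was taken off the levels. On the scale of deviations, where each WT heart is set against the other 4, WT 1 reached 0.55 and so overlapped. Cenpe, a kinesin that carries chromosomes to the spindle equator, read -1.06, -1.87, -2.14, -0.95 and -1.59 in WT and -0.18, -0.61, 2.04 and -1.06 in RORasg/sg hearts, with RORasg/sg 3 highest (difference 1.57, SE 0.621, limma adjusted p = 0.418). Bub1, the kinase that marks centromeres, read between -2.91 and -1.49 in WT and -2.54, -1.43, 0.29 and 0.16 in RORasg/sg hearts, so that RORasg/sg 3 and 4 were high and RORasg/sg 1 was within the WT range (difference 1.15, SE 0.621). Cenpf, a large kinetochore protein, read between 1.83 and 2.89 in WT and 1.31, 3.05, 3.00 and 2.89 in RORasg/sg hearts, with RORasg/sg 1 the lowest of the 9 (difference 0.19, SE 0.462). Ndc80, which binds microtubules directly, differed by 0.03 (SE 0.478) and Mad2l1, the checkpoint inhibitor of Cdc20, by 0.03 (SE 0.722), and both turned negative under median scaling, quantile normalization, centring on the shift and no scaling.

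The 2 chromosomal passenger genes besides Aurkb followed RORasg/sg 1. Birc5, survivin, read 2.60, 2.45, 2.21, 2.76 and 2.30 in WT and 4.04, 3.25, 3.06 and 2.55 in RORasg/sg hearts, a difference of 0.76 (SE 0.398, limma adjusted p = 0.418). Only RORasg/sg 1 stood apart after the shift, at 1.98 against 0.20, -0.05 and -0.67. Cdca8, borealin, read between -1.63 and -0.79 in WT and 1.32, -2.28, 0.23 and -1.79 in RORasg/sg hearts (difference 0.51, SE 0.689, limma adjusted p = 0.648), so RORasg/sg 2 and 4 were below all WT hearts and RORasg/sg 1 and 3 above them.

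Of the 4 spindle motors and assembly factors, 4 had a higher mean and 0 passed, and the medians after the shift were 1.69, 0.59, 0.08 and 0.12 in RORasg/sg hearts 1 to 4. Kif11, the kinesin that pushes spindle poles apart, read -3.03, -2.88, -3.48, -2.86 and -3.05 in WT and -1.85, 0.52, -2.16 and -2.17 in RORasg/sg hearts. All RORasg/sg hearts were above all WT hearts, and RORasg/sg 2 was the highest by over 2 log2 units (difference 1.65, SE 0.566, limma adjusted p = 0.400). Tpx2, which activates Aurora A on the spindle, differed by 0.75 (SE 0.612), with RORasg/sg hearts at -1.63, -1.74, -2.66 and -3.85 and WT hearts between -4.53 and -2.16. Nusap1, a microtubule bundling protein, read between -1.44 and -0.89 in WT and 0.20, -1.57, -0.89 and -0.33 in RORasg/sg hearts (difference 0.53, SE 0.454). Kif2c, a kinesin that disassembles microtubule ends, ran the other way, with RORasg/sg hearts at -4.65, -2.77, -2.55 and -1.23 and WT hearts between -4.67 and -1.93 (difference 0.82, SE 0.719), so RORasg/sg 1 was the lowest of the mutants.

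Cytokinesis genes had a higher mean in 5 of 5 tested genes (66.8% of all genes), each above the median of all genes. An unadjusted p under 0.05 was reached by 3 of the 5 (4.95% of all genes on the higher side). With the shift taken off the levels, the unadjusted limma p of these was 0.0073 for Racgap1, 0.103 for Anln and 0.205 for Kif23. Racgap1, part of the centralspindlin complex that directs the cleavage furrow, had the smallest p of the 31 genes. It read -4.42, -4.97, -3.97, -4.08 and -4.86 in the WT hearts (mean -4.46 ± 0.447 SD, n = 5) and -0.64, -2.51, -3.06 and -1.67 in the RORasg/sg hearts (mean -1.97 ± 1.06 SD, n = 4). The lowest RORasg/sg heart was almost 1 log2 unit above the highest WT heart, and the group means differed 5.62-fold (log2 difference 2.49, SE 0.530, limma adjusted p = 0.344). After the shift Racgap1 lay at 4.22, 1.37, 0.75 and 2.04, and the log2 difference was 2.10 (SE 0.628, limma adjusted p = 0.411). The lowest of these was just under the highest WT deviation, WT 3 at 0.78 against the other 4 WT hearts. Racgap1 was called higher without RORasg/sg 1 (2.05, limma adjusted p = 0.0116) and in the 5 brighter arrays (3.92, limma adjusted p = 0.0148). These fits share 4 WT hearts, and the second has RORasg/sg 1 as its only mutant heart, whose spread is assumed to be that of the WT hearts.

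Kif23, the kinesin partner of Racgap1 in centralspindlin, read -1.53, -1.94, -1.53, -1.77 and -1.32 in WT and -0.61, -0.81, -0.72 and -0.78 in RORasg/sg hearts. The mutant hearts were tightly grouped above the WT hearts (difference 0.89, SE 0.376, limma adjusted p = 0.418), but after the shift only RORasg/sg 1 stood apart, at 1.41 against 0.23, 0.24 and 0.09. Anln, anillin, the scaffold of the contractile ring, read -2.09, -2.96, -3.38, -2.88 and -3.02 in WT and -1.84, -2.13, -1.53 and -1.81 in RORasg/sg hearts, with WT 1 inside the mutant range (difference 1.04, SE 0.404, limma adjusted p = 0.418). Ect2, the exchange factor that activates RhoA at the furrow, read between -2.02 and -1.21 in WT and -0.51, 0.40, -0.40 and -3.04 in RORasg/sg hearts, so RORasg/sg 4 was below and the other mutants above all WT hearts (difference 0.59, SE 0.630). Kif20a, a kinesin of the late spindle midzone, differed by 0.62 (SE 0.413), with RORasg/sg hearts at 0.31, -0.08, -0.74 and -0.34 and WT hearts between -1.12 and -0.45.

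The anaphase ubiquitin ligase was represented by its activator Cdc20 and its ubiquitin-conjugating enzyme Ube2c. Cdc20 read between -0.83 and 1.25 in WT and 0.86, 0.57, 0.98 and -0.17 in RORasg/sg hearts (difference 0.53, SE 0.508). Ube2c read between -3.08 and -1.65 in WT and -0.23, -3.05, -0.27 and -2.82 in RORasg/sg hearts (difference 0.58, SE 0.668), with RORasg/sg 1 and 3 high and RORasg/sg 2 and 4 at the bottom of the WT range.

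Mki67, whose product Ki-67 coats mitotic chromosomes and serves as the standard marker of proliferation, and Top2a, the topoisomerase that untangles sister chromatids, were high in RORasg/sg 1 and in neither case passed the test between genotypes. Mki67 read 0.59, 0.66, -0.16, -1.99 and 0.28 in WT and 2.85, 1.23, -0.64 and -0.42 in RORasg/sg hearts, a difference of 0.88 (SE 0.783, limma adjusted p = 0.507). Top2a read -1.09, -0.98, -2.14, -2.21 and -1.66 in WT and 0.75, -1.41, -3.10 and -2.24 in RORasg/sg hearts, a difference of 0.12 (SE 0.694, limma adjusted p = 0.922) that turned negative with no scaling and with each array centred on its shift. RORasg/sg 1 was the highest of the 9 hearts for both genes, and RORasg/sg 3 and 4 were below the WT mean, at -1.17 and -1.06 for Mki67 and -2.14 and -1.37 for Top2a after the shift.

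**Figure D2:**
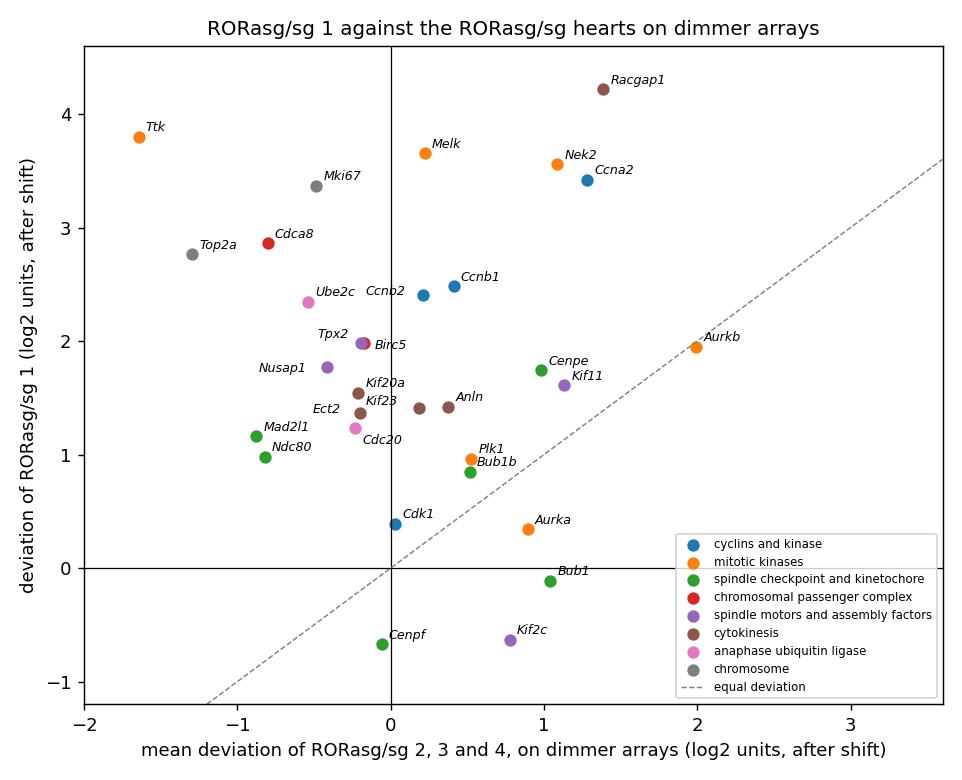
For each of 31 genes, the deviation of RORasg/sg 1 from the WT mean (y axis) against the mean deviation of RORasg/sg 2, 3 and 4, the RORasg/sg hearts on dimmer arrays (x axis), both in log2 units after the shift and coloured by role, with a dashed line of equal deviation. RORasg/sg 1 lies higher in 26 of the 31 genes, with medians of 1.74 and 0.19.

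In the plot of RORasg/sg 1 against the mutants on dimmer arrays, RORasg/sg 1 was higher in 26 of the 31 genes, whereas 49.4% of all genes were higher there. The mean of RORasg/sg 2, 3 and 4 was above the WT mean in 17 of the 31 genes after the shift, against 50.9% of all genes. It exceeded the WT mean by over 1 log2 unit in 6 of the 31, against 12.1% of all genes. By the mean of the 3 hearts, Racgap1, Ccna2, Nek2, Aurkb and Kif11 were high on both axes, Ttk, Mki67, Top2a and Cdca8 were high in RORasg/sg 1 and below 0 in the others, and Bub1 and Kif2c were high in the others alone. The 3 hearts did not always share a high mean. RORasg/sg 2, 3 and 4 lay at 1.37, 0.75 and 2.04 for Racgap1 and 2.23, 2.59 and -0.97 for Ccna2. They lay at 3.28, -0.17 and 0.16 for Nek2, 1.41, 4.14 and 0.42 for Aurkb, and 3.00, 0.25 and 0.14 for Kif11.

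Other probes of the same genes showed the same heart standing apart. Of the 31 genes, 13 had more than 1 probe, which gave 15 other probes, 12 of them well above background on at least 4 arrays. The median of these 12 after the shift was 0.18, 0.03, -0.11, -0.85 and 0.53 for WT hearts 1 to 5 and 2.26, -0.42, -1.54 and -0.82 for RORasg/sg hearts 1 to 4. In RORasg/sg 1, 11 of the 12 were above the WT mean after the shift (50% of all genes). By over 1 log2 unit, 10 of the 12 were above it (12.7% of all genes). These shares of all genes are over the brightest probe of each gene, so they are not a matched background for dimmer probes. The group means were less alike. With the 75th percentile scaling, 11 of the 15 other probes had a higher and 4 a lower mean in RORasg/sg hearts. That is near the 66.8% of all genes with a higher mean. Of the 15, 9 lay above the median of all genes.

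Single genes show how far probes differed. The other probe of Racgap1 was not well above background in any WT heart and was so in RORasg/sg 1 alone, where it read -4.09 against -7.81 to -7.52 in WT hearts and -6.74, -5.93 and -6.85 in RORasg/sg 2, 3 and 4. The other probe of Cdk1 was likewise well above background in RORasg/sg 1 alone, at -3.06 against -7.93 to -6.30 in WT hearts and -6.81, -7.53 and -6.94 in the other mutants. The WT values of these probes are not well above background, so no size of difference is given for them. The other probe of Bub1, well above background in 3 WT and 3 RORasg/sg hearts, read between -6.13 and -3.33 in WT and -1.88, -4.34, -1.14 and -4.72 in RORasg/sg hearts, with RORasg/sg 1 and 3 above every WT heart. For Kif11 both probes put every RORasg/sg heart above every WT heart, with the second at -4.67, -5.02, -4.98, -4.60 and -4.86 in WT and -3.64, -3.08, -3.35 and -3.71 in RORasg/sg hearts. The second probe of Kif23 read -4.38, -4.47, -4.46, -6.59 and -4.06 in WT and -1.39, -5.85, -7.04 and -4.89 in RORasg/sg hearts, so the tight grouping of the mutants on the brighter probe was not seen on it. The second probe of Mki67 read -0.9998, -1.62, -2.20, 0.89 and -1.98 in WT and 0.66, -2.08, -2.59 and -2.06 in RORasg/sg hearts, with WT 4 the highest and RORasg/sg 1 next.

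**Figure D3:**
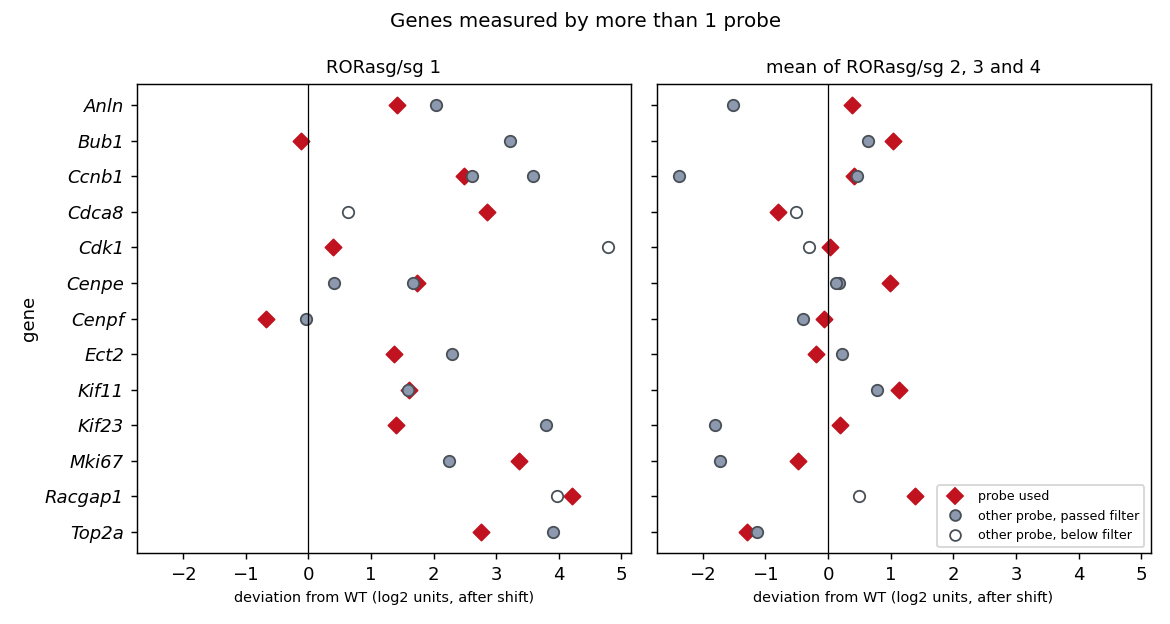
Deviation from the WT mean after the shift (x axis, log2 units) for the 13 genes with more than 1 probe, in RORasg/sg 1 (left) and as the mean of RORasg/sg 2, 3 and 4 (right). Red diamonds are the probes used, filled circles other probes well above background on at least 4 arrays, and open circles probes below that filter; in RORasg/sg 1, 11 of the 12 filled circles lie above 0.

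After the shift, the wider cell cycle programme also stood apart in RORasg/sg 1, at a smaller size. A list of 66 symbols of other mitosis genes, older names included, with kinesins, centromere proteins and condensins, had 62 tested genes. With the 75th percentile scaling, 44 of the 62 had a higher and 18 a lower mean in RORasg/sg hearts. That is near the share of all genes with a higher mean, 66.8%. Above the median of all genes lay 38 of the 62, against 13887 of all 27775 genes. Their median log2 difference was 0.72, against 0.41 for all genes. In limma 0 passed, while 14 of the 62 on the higher and 2 on the lower side had an unadjusted p under 0.05, against 4.95% and 6.56% of all genes. Their median after the shift was 1.11, -0.03, 0.23 and 0.0046 in RORasg/sg hearts 1 to 4 and between -0.19 and 0.20 in WT hearts, and 51 of the 62 exceeded the WT mean in RORasg/sg 1. Without the shift, RORasg/sg 1 did not stand apart from the other mutants. The median deviation of the 62 genes was then 0.72, 0.55, 0.88 and 0.76 in RORasg/sg hearts 1 to 4, and between -0.22 and 0.49 in WT hearts. The 4 with the smallest p were Kif4, a chromosome-bound kinesin (1.61, SE 0.416, limma adjusted p = 0.366), Mybl2, a transcription factor of late cell cycle genes (2.01, SE 0.610, limma adjusted p = 0.376), Cks2, a Cdk1 subunit (1.66, SE 0.540, limma adjusted p = 0.390), and Knl1, a kinetochore scaffold (1.23, SE 0.408, limma adjusted p = 0.397).

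A list of 32 symbols, older names included, held mitotic machinery that resting cells also express. Examples are subunits of the anaphase ubiquitin ligase and cohesin. The list did not show a rise of that size in RORasg/sg 1. Of its 29 tested genes, 15 had a higher and 14 a lower mean (66.8% of all genes were higher), and 6 lay above the median of all genes. In limma 0 passed, while 0 on the higher and 5 on the lower side had an unadjusted p under 0.05, against 4.95% and 6.56% of all genes. Their median after the shift was 0.24, -0.02, -0.65 and -0.94 in RORasg/sg hearts 1 to 4. The 2 with the smallest p, Cdc26 (-2.62, SE 0.704, limma adjusted p = 0.376) and Cdc23 (-2.58, SE 0.802, limma adjusted p = 0.387), both subunits of that ligase, were low in RORasg/sg 2, 3 and 4. In promoter windows, 41.7% of the 24 listed genes of this kind held CCAAT and 16.7% held TTTGAA or TTTAAA, against 76.0% and 68.0% of 50 of the other mitosis genes.

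Cell type markers moved with the hearts too, and their part in the values of the mitosis genes was not tested. Cardiomyocyte markers lay at 0.45, -0.98, -2.93 and -2.60 after the shift in RORasg/sg hearts 1 to 4 (median of 10 genes), with 0 of 10 having a higher mean in RORasg/sg hearts. The median of the 10 endothelial markers lay at 0.49, -1.70, -2.42 and -2.65, with 3 having a higher and 7 a lower mean in RORasg/sg hearts. The 3 with the higher mean were also the 3 brightest, Cdh5, Robo4 and Emcn, and did not share the low median: Emcn lay at 0.24, 1.14, 1.31 and 0.57 after the shift. Fibroblast markers had medians of 0.64, 0.75, -0.33 and -0.80, with 6 higher and 4 lower. Its 3 brightest, Fbln1, Col3a1 and Lum, lay above the WT mean after the shift in RORasg/sg 3 (0.080, 0.77 and 1.17) and RORasg/sg 4 (0.21, 0.90 and 0.74), where the median was negative. Macrophage markers (Cd163, Adgre1 and Csf1r the brightest, 5 higher and 5 lower) had medians of 0.68, -0.15, -0.73 and -0.46. RORasg/sg 1 was above the WT mean in all 4 of these lists, by less than the 1.74 of the mitosis genes. In RORasg/sg 1, 8 of 10 endothelial, 8 of 10 fibroblast and 8 of 10 macrophage markers exceeded the WT mean after the shift. The medians of lymphocyte markers (Cd79b and Nkg7 among the brightest, 7 higher and 2 lower) lay at 0.07, 0.09, 0.50 and -0.07, those of erythroid markers (Hbb-bt, Hba-a1 and Alas2 the brightest, 5 higher and 3 lower) at 0.20, -0.52, -0.40 and -0.43, and those of smooth muscle markers (Tagln, Acta2 and Pdgfrb the brightest, 5 higher and 5 lower) at 0.23, -0.17, -1.23 and -0.69. All 10 cardiomyocyte and all 10 macrophage markers were well above background on all arrays, as were 8 of 10 endothelial, 9 of 10 fibroblast, 7 of 9 lymphocyte, 5 of 8 erythroid and 9 of 10 smooth muscle markers, and 0 were below it throughout a group. Lck, Hbb-b1 and Ahsp were not tested. The summed signal of the macrophage markers, on the log2 scale, lay between 3.75 and 5.19 in WT and between 4.01 and 5.44 in RORasg/sg hearts. That of the lymphocyte markers lay between 1.15 and 1.79 in WT and between 0.64 and 3.82 in RORasg/sg hearts, and that of the erythroid markers between 4.68 and 5.91 and between 4.83 and 6.12. For fibroblast markers it lay between 6.38 and 7.02 in WT and between 6.76 and 8.25 in RORasg/sg hearts, and for endothelial markers between 5.34 and 5.82 and between 5.51 and 6.70. The summed signal of the 31 mitosis genes lay between 4.07 and 4.67 in WT and between 4.89 and 5.56 in RORasg/sg hearts, without the shift taken off. For the 62 other mitosis genes it lay between 6.27 and 7.36 in WT and between 6.24 and 7.72 in RORasg/sg hearts, with RORasg/sg 1 the lowest. For all genes it lay between 16.4 and 17.0 in WT and between 16.2 and 17.5 in RORasg/sg hearts. Such a sum weighs the brightest genes most, among the 31 genes Birc5 and Cenpf (WT means of 2.46 and 2.37).

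**Figure D4:**
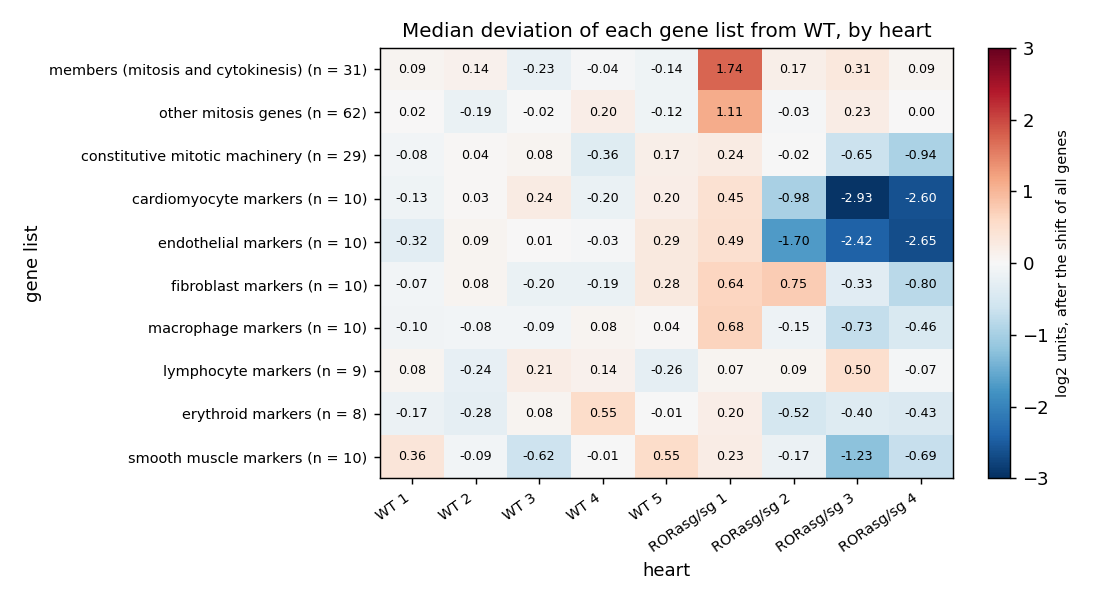
Median deviation from the WT mean after the shift of all genes (colour and printed value, log2 units) of each gene list (rows) in each of the 9 hearts (columns). The mitosis genes reach 1.74 in RORasg/sg 1 and lie between -0.23 and 0.31 in the other 8 hearts.

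How the genes varied with each other depended on the same heart. The median Pearson correlation between pairs of the 31 genes over the 9 hearts, after the shift, was 0.40, and over the 8 hearts without RORasg/sg 1 it was 0.04. For the 62 other mitosis genes the same values were 0.14 and -0.01, for the 29 genes of constitutive machinery 0.37 and 0.34, and for the 10 cardiomyocyte markers 0.95 and 0.95. The hearts also differed in array brightness and in cell type markers, so these correlations are a description only.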

How the data were processed

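Each of the 9 hearts was measured on 1 array. Per the labels' protocols, 70 ng of total RNA was amplified (NuGEN Ovation Pico WTA) and labelled with Cy3. Per the file headers, Feature Extraction 12.0.0.7 (protocol GE1_1200_Jun14, design 014868) produced the deposited intensity of each spot, which is background-subtracted and has no scaling between arrays. The same intensities stood in the series' value table (largest relative difference 0). From these, 758 outlier-flagged spots were dropped, spots of a probe were averaged, and log2 of the processed signal minus the 75th percentile of each array was taken. Kept were 36405 of 41174 probes, those well above background on 4 or more of the 9 arrays. Symbols came from the RefSeq genes of GRCm38.p6 by accession (28223 probes matched), and of several probes the brightest stood for the gene. Groups were compared over all 27775 genes by linear models in limma 3.58.1 (R 4.3.3), with a mean-variance trend in eBayes, Benjamini-Hochberg adjustment and a threshold of 0.05. The fit was tested on simulated data. Python 3.11.15 and matplotlib 3.10.9 made the figures. The array shift of a WT heart is taken against the other 4 WT hearts.

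The mitosis genes, the other lists, the tests and the alternatives were chosen with earlier results of these data known. All 32 listed genes are named, with values per heart for the 12 with the smallest p, for Mki67, Top2a, Cdk1, Ccnb1, Aurkb and Plk1, and for others whose values were described after they were seen. Named with them were 4 other mitosis genes and 2 of constitutive machinery with the smallest p, and up to 3 of each marker list with the highest mean. A marker that this rule names is not reported here. Alternatives were other scalings, normexp background correction (offset 50), other filters and probe rules, array weights, slide, brightness and leaving out each heart. Slide 3 held WT 5 alone. WT and RORasg/sg hearts with the same replicate number did not deviate together in 3 of 4 pairs, so the numbers were not used as pairs. The number of arrays limits the precision.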

Additional observations from a re-analysis of the deposited data

Results flagged for a closer look

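In 64 groups of 4 or 5 hearts (each gene, and the median, in each genotype), 1 heart lay far from the others, by Dixon's criterion, in 9, where chance alone marks about 1 in 20 groups. The median of the mitosis genes after the shift was 1.74 in RORasg/sg 1, with the nearest other RORasg/sg heart at 0.31. RORasg/sg 1 also stood apart for Ttk (-1.98, nearest -6.11) and Melk (-0.94, nearest -3.13), which were high there, and for Cenpf (1.31, nearest 2.89), which was low there. For Kif11, RORasg/sg 2 was far above the others (0.52, nearest -1.85), and for Ccna2, RORasg/sg 4 was far below them (-3.49, nearest -0.46). Among WT hearts, WT 4 was low for Ccna2 (-4.63, nearest -3.18) and high for Mad2l1 (-0.73, nearest -2.30), and WT 5 was low for Ccnb1 (-6.62, nearest -5.63).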

How the results depend on the processing

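In limma, 0 of the 31 mitosis genes passed under 23 of 26 alternatives, and the exceptions were array weights (13, or 41.9%, against 38.1% of all genes called higher), the 5 brighter arrays (12, or 38.7%, against 1.33%) and leaving out RORasg/sg 1 (8, or 25.8%, against 28.8%). Leaving out single hearts gave 0 to 8 genes passing. Over all genes the fit called 1, and the alternatives called 2 with quantile normalization or centring, 3 without scaling, 9 with the replicate block, 1260 in the 5 brighter arrays and 15216 with array weights. They called 0 with normexp, with the filter at all 9 arrays, with the mean over probes, with slide as a block, within slide 1 or 2, and in the 4 dimmer arrays. Leaving out single hearts gave 0 to 10453, the latter without RORasg/sg 1, and 0 without any WT heart, RORasg/sg 2 or RORasg/sg 3.

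The median of the 31 genes lay 0.47 above that of all genes, and moved to 0.31 with normexp, 0.22 with array weights, 0.83 within slide 1, 0.19 within slide 2, 1.08 with brightness as a covariate, 1.74 in the 5 brighter arrays and 0.095 in the 4 dimmer arrays. Leaving out single hearts gave 0.16 (without RORasg/sg 1) to 0.71 (without RORasg/sg 4), and 17 to 28 genes above the median of all genes against 26. With the replicate block this distance was 0.52, and 0 mitosis genes passed. Replicate numbers correlated with r of 0.05, -0.0064, -0.33 and 0.39 between genotypes, and only number 4 correlated best with its own number.

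The direction of single genes that did not pass in either fit turned in 61 of 802 values, and the cause was not tested. With array weights, the reversals were Mad2l1 at -0.69, Mki67 at -0.55, Top2a at -1.13 and Ttk at -1.07. With brightness as a covariate, the reversals were Cenpf at -0.34, Kif2c at -0.29 and Mad2l1 at -0.27. With arrays centred on their shift, the reversals were Cenpf at -0.20, Mad2l1 at -0.36, Ndc80 at -0.36, Top2a at -0.27 and Ttk at -0.27. With median scaling, the reversals were Mad2l1 at -0.030 and Ndc80 at -0.035. Without scaling, the reversals were Cdc20 at -0.043, Cdca8 at -0.067, Cdk1 at -0.059, Cenpf at -0.39, Mad2l1 at -0.55, Ndc80 at -0.55, Nusap1 at -0.046, Top2a at -0.46 and Ttk at -0.46. With quantile normalization, the reversals were Cenpf at -0.00488, Mad2l1 at -0.037, Ndc80 at -0.049 and Ttk at -0.29. With the replicate block, the reversal was Ndc80 at -0.16. With slide as a block, the reversal was Ndc80 at -0.16. In the 4 dimmer arrays, the reversals were Cdc20 at -0.79, Kif2c at -0.25, Mad2l1 at -1.68, Ndc80 at -1.19, Top2a at -0.042, Tpx2 at -0.26, Ttk at -0.72 and Ube2c at -0.40. In the 5 brighter arrays, the reversals were Bub1 at -0.41, Cenpf at -1.06 and Kif2c at -0.60. Within slide 1, the reversals were Bub1 at -0.35, Cenpf at -0.46 and Kif2c at -0.13. Within slide 2, the reversals were Cdc20 at -0.039, Mad2l1 at -0.63, Ndc80 at -0.46, Top2a at -0.49 and Ttk at -0.71. Leaving out single hearts gave Mad2l1 from -0.52 to 0.74, Ndc80 from -0.16 to 0.29, Top2a from -0.63 to 0.65, Cdca8 from -0.14 to 1.06 and Ttk from -0.98 to 0.58. With the filter at all 9 arrays, 27 of the 31 genes could be tested. Signal near background limits Ccnb1, Ttk and the other probes of Racgap1 and Cdk1.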
